A study of Arabidopsis thaliana with 2 samples.

Results

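LEAFY (LFY) sites inside protein-coding genes were those DNA affinity purification sequencing (DAP-seq) intervals whose midpoint lay between the annotated start and end of a protein-coding gene on chromosomes 1 to 5 of Arabidopsis thaliana. Of the 22514 sites listed for native DNA, 17129 met this rule. In DAP-seq, fragments of genomic DNA are mixed with a tagged protein made in vitro, those that stay on the protein are sequenced, and regions rich in their reads are reported as peaks, called sites here. The DAP group was 1 library of LFY with a 5XMyC tag on sheared DNA from 2-week-old seedlings of a line labelled 35S::LFY (CA26 #15), in which, by its name, LFY is driven by a constitutive viral promoter. The ampDAP group was 1 library of the same tagged protein on PCR-amplified DNA, which has lost its cytosine methylation, from 2-week-old seedlings with no transgene in the label. Both DNAs came from plants grown in long days on medium of 0.5 strength. With 1 library per group, no test between them was possible, methylation cannot be told apart from plant source or amplification, and all values describe these 2 libraries.

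LFY is a plant-specific transcription factor that turns on the floral organ identity genes in young flower primordia. It binds DNA as a dimer, and naked-DNA assays such as this one list sequences that the protein can bind without chromatin. Well-studied LFY-responsive elements lie in promoters, and the one in AGAMOUS (AG) lies within the transcribed gene. The files hold positions only, every interval was 400 bp wide, and the read depth behind the lists is unknown. The annotation used here gives gene starts, ends and lengths without strand, exons or sequence, so position along a gene is given from either end, and exons, introns and motifs were not analysed here.

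Sites on native DNA were concentrated inside genes. Of the DAP sites, 76.1% lay inside a protein-coding gene (exact Clopper-Pearson 95% interval 75.5 to 76.6%, which like all intervals below covers counting error only and treats sites as independent). Protein-coding genes covered 54.1% of the 5 chromosomes. This amounted to 265.7 DAP sites per Mb inside genes and 98.5 per Mb outside, a ratio of 2.70. Chromosome 2 had the lowest ratio (2.62) and chromosome 4 the highest (2.83). The ratio varied more along chromosomes, at 3.71 within 2.5 Mb of each chromosome's longest stretch without a site and 2.22 farther away. Lower density near these stretches follows in part from how they were chosen. The share of sites inside genes was lowest on chromosome 2 (72.1%), where genes covered 49.6% of the sequence, and highest on chromosome 5 (77.5%), where they covered 55.7%. Sites on amplified DNA showed a smaller contrast: 3327 of 4882 ampDAP sites (68.1%, 66.8 to 69.5%) lay inside genes, at 51.6 per Mb against 28.5 per Mb outside, a ratio of 1.81.

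The change in density did not fall exactly at the annotated gene edge. Outside genes, DAP density was 109.2 per Mb at 500 to 750 bp from the nearest gene and 153.7 per Mb within 50 bp. It was similar just inside, at 160.4 per Mb in the first 50 bp and 165.7 per Mb at 100 to 150 bp. It then rose to 225.5 per Mb at 200 to 250 bp and 270.2 per Mb at 300 to 400 bp from the edge, and stayed between 284.3 and 297.8 per Mb from 400 to 3000 bp. Within 10 bp of a gene edge there were 94 sites on the inner side and 85 on the outer side, so moving the edge by that distance would reassign few of the sites. The density deeper than 200 bp inside genes was 1.54 to 1.76 times that of the inner 200 bp on the 5 chromosomes. The ampDAP density followed a similar course, with 24.8 per Mb at 500 to 750 bp outside, 42.4 per Mb in the first 50 bp inside, and 54.8 per Mb at 300 to 400 bp inside.

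**Figure D1:**
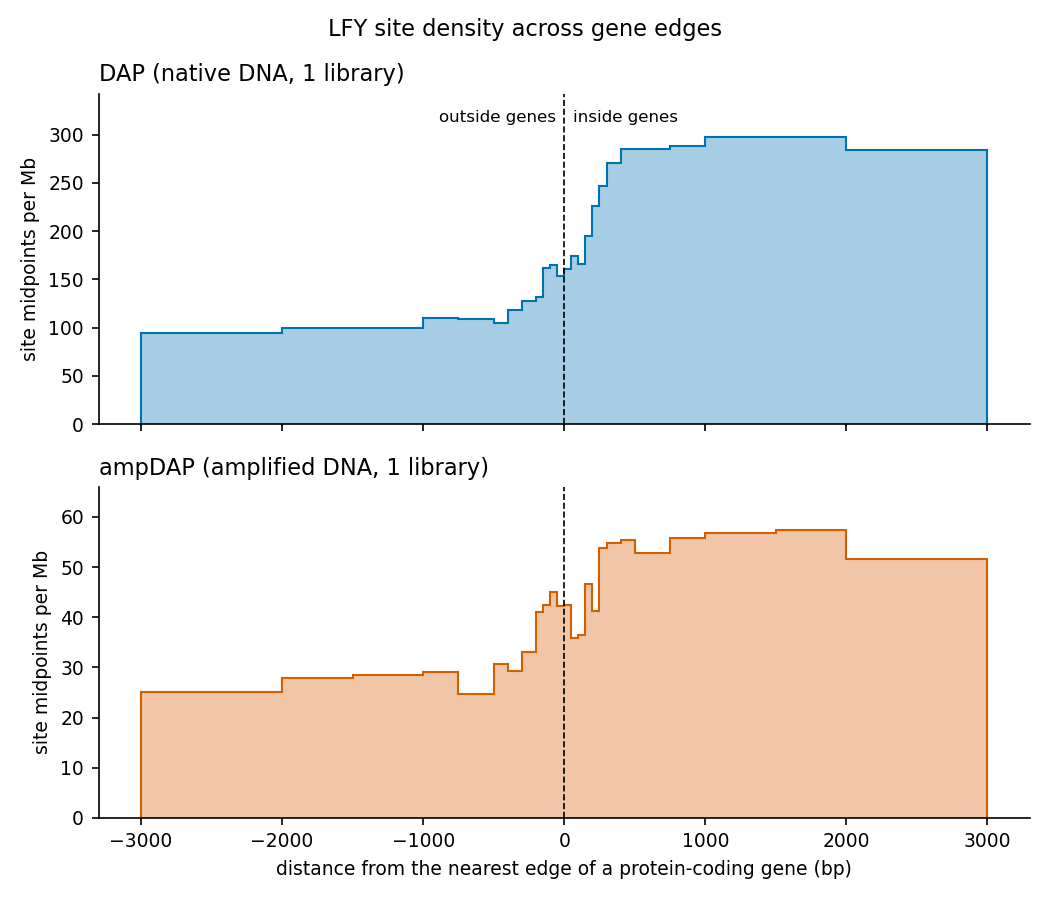
Density of LFY site midpoints per Mb of sequence (y axis, from 0) by distance in bp from the nearest protein-coding gene edge (x axis, negative outside and positive inside genes), for DAP sites (upper panel) and ampDAP sites (lower panel), 1 library each. DAP density was 153.7 per Mb just outside and 160.4 per Mb just inside the edge and 270.2 per Mb at 300 to 400 bp inside.

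Relative to gene length, sites were fewer at both ends and nearly level between them. A site inside overlapping genes was placed in each of them, which gave 17383 placements, because 254 sites lay in 2 or more genes. With each gene divided into 10 segments of equal length, the segment at the end with the lower coordinate held 7.43% of placements (7.04 to 7.83%) and the segment at the other end 7.44% (7.05 to 7.84%). The 8 segments between them held 9.67 to 11.6% each. The side of the gene midpoint with the lower coordinates held 49.5% (48.7 to 50.2%). Since genes lie on both strands, this equality says nothing about gene starts and gene ends. The outer 20% of gene length at either end held, in sum, 34.5% of placements (33.8 to 35.2%). These outer parts held 30.2% in genes of up to 1500 bp and 39.1% in genes of more than 6000 bp. The median distance from a site to the nearer end of its gene was 720 bp (quartiles 380 and 1200 bp), and the most interior site lay 13206 bp from the nearer end. It was in ATM, a kinase gene of the DNA damage response and, at 27265 bp, the longest protein-coding gene. The whole 400 bp interval lay within 1 gene for 15340 of the sites (89.6%).

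**Figure D2:**
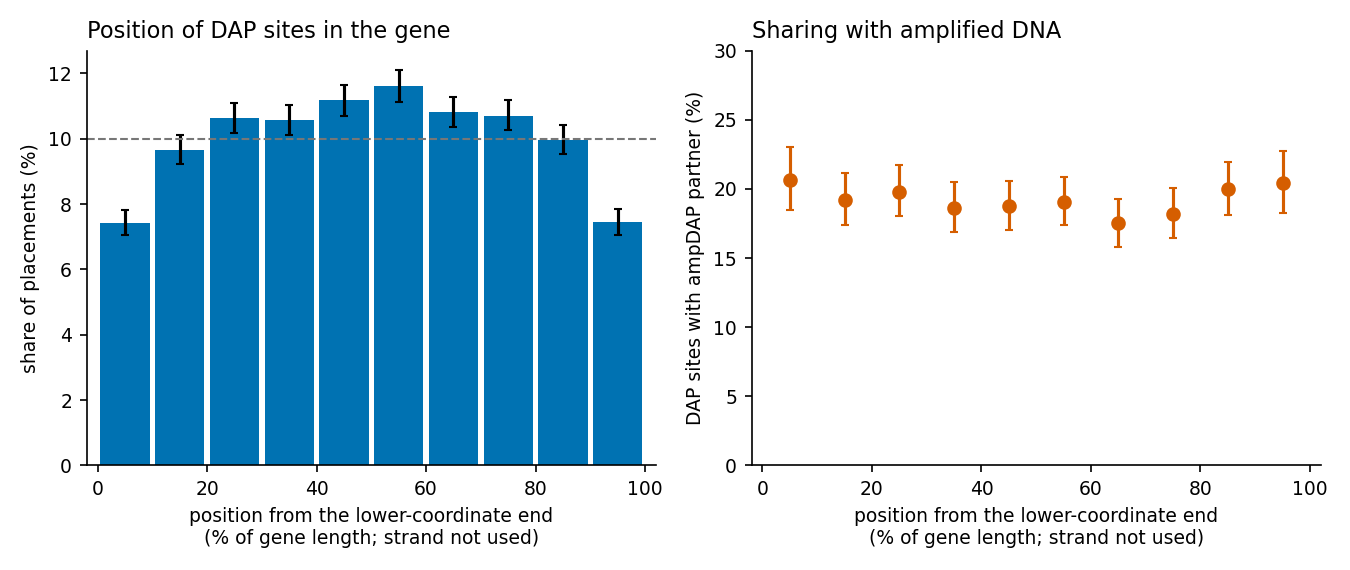
Left, share of the 17383 site placements in each of 10 equal segments of the gene, counted from the end with the lower coordinate, with the dashed line at the 10% an even spread would give. Right, share of those sites with an ampDAP midpoint within 200 bp. Bars and points are values of 1 library per group with exact 95% intervals; the outermost segments held 7.43 and 7.44% and sharing stayed between 17.5 and 20.7%.

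Sites were spread over many genes. Of 27444 protein-coding genes, 11923 held at least 1 DAP site (43.4%, the share against which gene groups are read below), 8033 held 1, 2756 held 2 and 817 held 3. Genes with 2 or more numbered 3890, which was 14.2% of all genes and 32.6% of genes with a site (31.8 to 33.5%). Only 76 genes held 5 or more. Genes with a site had a median length of 2622 bp, against 1695 bp for genes without one, and the median length rose from 2356 bp with 1 site to 3776 bp with 3 and 7289 bp with 5. The share of genes with a site rose with length in every class, from 8.37% of genes up to 500 bp to 49.5% at 2000 to 3000 bp and 90.2% (83.5 to 94.8%) above 10000 bp. The number of sites per kb changed much less. It was 0.210 at 500 to 1000 bp, 0.278 at 1500 to 2000 bp, 0.253 at 6000 to 10000 bp and 0.230 above 10000 bp, and 0.266 over all genes. In genes of 2000 to 3000 bp there were 0.179 sites per kb in the 200 bp next to the ends and 0.294 deeper inside. In genes above 10000 bp these values were 0.225 and 0.230. That class held 122 genes, so the value for the ends rests on little sequence, and no interval was computed for it.

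**Figure D3:**
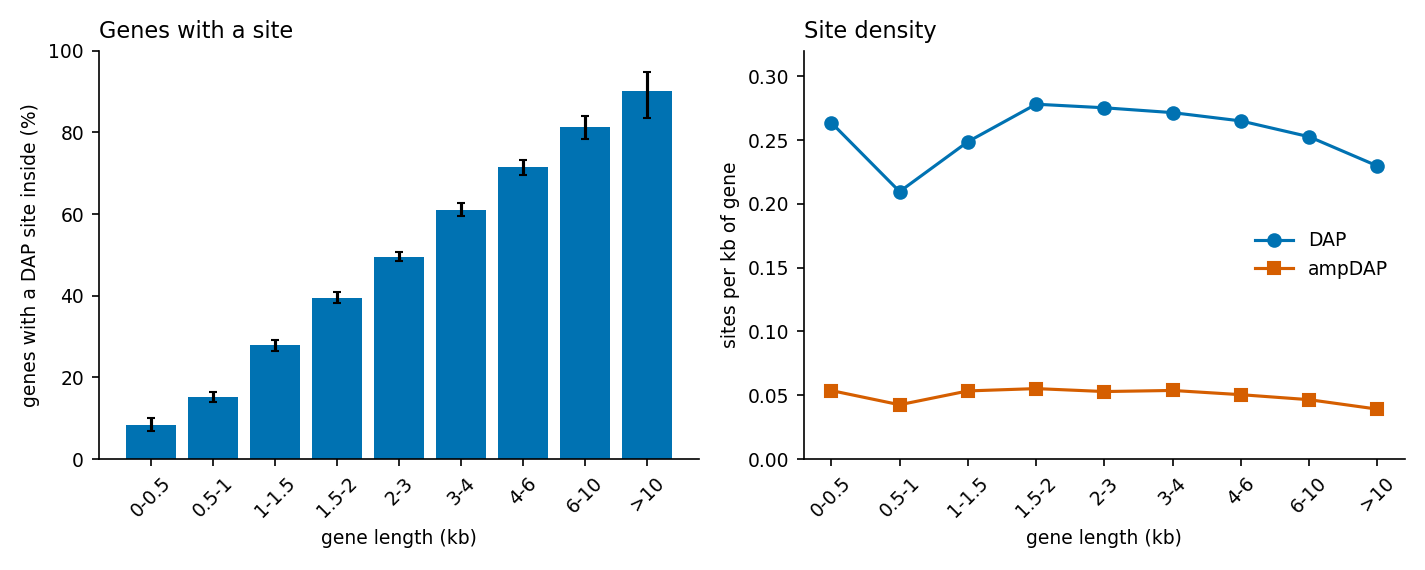
Left, share of protein-coding genes with at least 1 DAP site inside, by gene length in kb, with exact 95% intervals. Right, DAP and ampDAP sites per kb of gene in the same classes. The share rose from 8.37 to 90.2% while DAP density stayed between 0.210 and 0.278 sites per kb.

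The spacing of sites within 1 gene is bounded by gene length, which had a median of 3067.5 bp in genes with 2 sites. The spacing that randomly scattered sites would have was not computed. The 5460 pairs of neighbouring sites in a gene lay a median of 842 bp apart (quartiles 465 and 1520 bp), the closest pair was 62 bp apart, and the intervals overlapped in 1028 pairs (18.8%). Overlapping intervals share sequence and may list one bound stretch more than once. When only the first of overlapping DAP intervals was kept, the share of genes with a site that held 2 or more fell from 32.6 to 28.7%.

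The 10 genes with the most sites were 6261 to 26499 bp long, against a median of 2078 bp over all genes. ILA, a large HEAT-repeat protein linked to translational control, held 9 sites in 18607 bp. MDN1 (AT1G67120), an ATPase of ribosome assembly, held 9 in 26211 bp, and AT4G17140 held 9 in 23544 bp. BRM, the ATPase BRAHMA of SWI/SNF chromatin remodelling complexes, was shorter, with 9 sites in 9523 bp, or 0.945 per kb. Of the BRM sites, 7 lay between 51.3 and 88.5% of the gene length from the end with the lower coordinate. The 9 intervals of BRM ran from chr2:18923093-18923492 to chr2:18930765-18931164 (TAIR10, the build named in the submitters' processing notes). The related remodelling ATPase SYD, named here after its value was seen, held 6 sites in 17067 bp. AT1G48090 held 8 sites. NRPC2, the second-largest subunit of RNA polymerase III, AT5G13980, AT5G49680, BIG, a very large protein needed for polar auxin transport, and EMB3142, a gene whose loss arrests embryos, held 7 each. Per length, these 10 genes ran from 0.302 per kb in AT1G48090 to 1.12 per kb in AT5G13980, against 0.266 over all genes. The 10 genes were chosen for their number of sites, so densities above that of all genes follow in part from the choice. As classes, genes of 6000 to 10000 bp held 0.253 per kb and genes above 10000 bp 0.230.

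Sharing with amplified DNA varied among these 10 genes. NRPC2 had an ampDAP midpoint within 200 bp, called a partner below, at 3 of its 7 sites, and ILA, MDN1, AT1G48090 and AT5G13980 at 2 each. BRM had 1 partnered site of 9, chr2:18929176-18929575, with the ampDAP midpoint 5 bp away. AT4G17140 and EMB3142 had none.

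**Figure D4:**
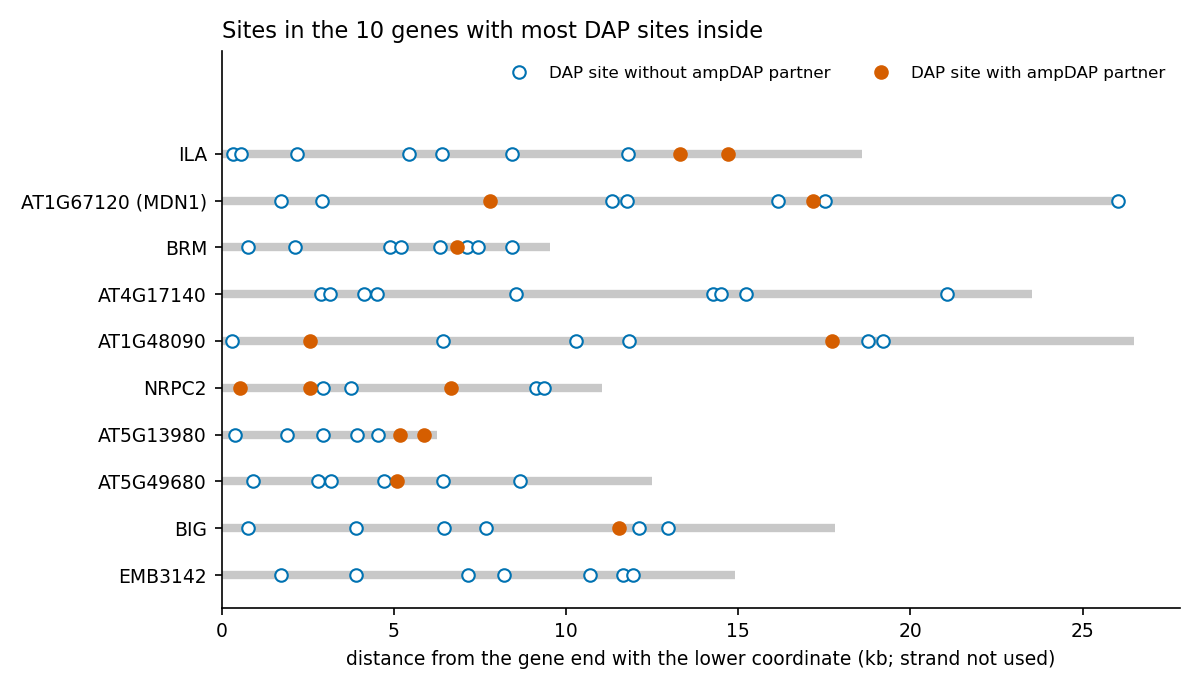
Positions of DAP sites along the 10 genes with most sites inside, in kb from the gene end with the lower coordinate (grey bars span the genes; strand was not used). Filled points had an ampDAP midpoint within 200 bp and open points did not: 1 of 9 in BRM and 3 of 7 in NRPC2 had one.

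The densest genes with at least 3 sites were short. AT2G42310 held 3 sites in 948 bp (3.17 per kb), 2 of them partnered. AT1G68960 held 4 sites in 1362 bp, CYP705A23, a cytochrome P450 gene, 4 in 1753 bp, AT1G48390 4 in 1883 bp and AT5G09700 4 in 1922 bp. Between them these 4 genes had 1 partnered site, in AT1G48390. The intervals of neighbouring sites overlapped in all 5 genes: in AT5G09700, for example, midpoints lay at 1770 and 1843 bp from the lower end. At the other extreme, the 3 longest genes with no DAP site were AT2G17930 (18317 bp), AT2G34100 (13956 bp) and UPL1, a ubiquitin-protein ligase gene (13369 bp).

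The next comparison asked which of the sites inside genes were also listed on amplified DNA. A partner was found for 3265 of 17129 sites (19.1%, 18.5 to 19.7%), and for 1337 of 5385 sites outside genes (24.8%, 23.7 to 26.0%). The share was thus 5.77 percentage points higher outside (Newcombe 95% interval 4.49 to 7.08). When only genes that overlap no other gene were used, so that sites in overlapping genes counted as outside, it was 2.95 points higher (1.88 to 4.02). It was higher outside on 5 of 5 chromosomes, from 23.7 against 20.2% on chromosome 2, where the intervals overlapped, to 25.6 against 18.6% on chromosome 3. Gene density differed along the chromosomes, and genes covered 17.4% of the sequence within 2.5 Mb of the longest stretch without a site and 63.9% farther away. Within 2.5 Mb of these stretches 21.5% of sites inside and 26.4% of sites outside genes had a partner (overlapping intervals of 19.0 to 24.2% and 24.0 to 28.9%), and farther away 18.9% and 24.3%. The part of gene density in the difference was not tested. Partnered midpoints inside genes lay a median of 7 bp apart (quartiles 3 and 13 bp), the same as outside.

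Within genes, sharing varied without a steady course close to the gene edge and was nearly level farther in. It was 24.9% (20.6 to 29.5%) within 50 bp of the edge, 17.7% (14.1 to 21.7%) at 50 to 100 bp, 21.2% at 100 to 150 bp and 23.4% at 150 to 200 bp. Over broader classes it was 21.8% (19.8 to 23.9%) within 200 bp, 19.5% at 200 to 500 bp, 18.6% at 500 to 1000 bp and 18.5% (17.6 to 19.4%) beyond 1000 bp. Over the 10 segments of gene length it ran from 17.5 to 20.7%, with overlapping intervals. It was 19.7% in genes with 1 site, 18.8% with 2, 17.3% with 3 and 21.0% with 4, and 17.0% (13.3 to 21.3%) in genes above 10000 bp. In the 2756 genes with 2 sites, both were partnered in 112, 1 in 813 and neither in 1831. Where one of these sites had a partner, the other had one in 21.6% of cases, and where it had none, in 18.2%.

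Sites listed on amplified DNA but not on native DNA were less frequent inside genes than outside. Of the 3327 ampDAP sites inside genes, 64 had no DAP midpoint within 200 bp (1.92%, 1.48 to 2.45%), against 227 of 1555 ampDAP sites outside (14.6%, 12.9 to 16.5%). These shares depended on the partner distance: with midpoints required within 20 bp they were 12.7% (11.6 to 13.9%) inside and 25.02% (22.9 to 27.3%) outside, and with 400 bp 1.83 and 14.0%. At 200 bp the share was lower inside on 5 of 5 chromosomes, with 0.80 to 2.89% inside and 10.03 to 17.8% outside. It was also lower on both sides of the regional division, at 3.17% against 26.3% within 2.5 Mb of the longest stretches without a site and 1.83% against 9.74% farther away. The number of sites listed on amplified DNA alone is limited by the unknown depth and threshold of the DAP list.

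**Figure D5:**
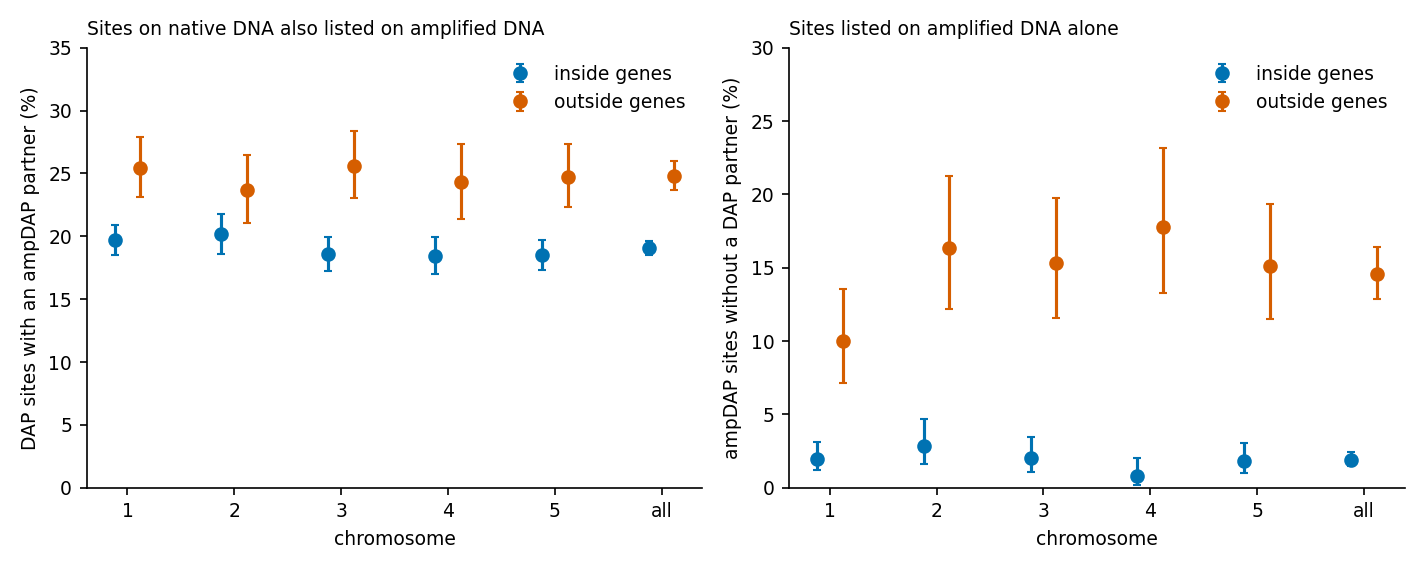
Left, share of DAP sites with an ampDAP midpoint within 200 bp, and right, share of ampDAP sites without a DAP midpoint within 200 bp, inside and outside protein-coding genes by chromosome, with exact 95% intervals (1 library per group). Inside genes 19.1% of DAP sites were partnered and 1.92% of ampDAP sites were unpartnered, against 24.8 and 14.6% outside.

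Genes in which every site was shared were rare. With a partner at 19.1% of sites inside genes, few genes with 3 or more sites would have one at each by that share alone. The number to be expected from it was not computed. A partnered site was present in 3058 genes, which was 11.1% of all protein-coding genes. Of the 1134 genes with 3 or more sites, 583 had no partnered site and 6 had a partner at every site. The 5 of these 6 that the naming rule took were AT3G48760, ORTHL, a member of the VARIANT IN METHYLATION family of proteins that bind methylated DNA, AT1G70550, PIP5K6, a phosphoinositide kinase gene, and AT5G35690. Each held 3 sites. In ORTHL the intervals were chr4:5465021-5465420, chr4:5465330-5465729 and chr4:5466112-5466511, with ampDAP midpoints 19, 2 and 5 bp away, and the first 2 of these intervals overlapped.

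Known floral regulators were examined by their roles. Of 20 floral regulators, 12 held a site inside the gene, a share with an interval of 36.1 to 80.9%, against 43.4% of all genes, and 5 held a partnered site, against 11.1%. No interval was computed for the partnered count. Their median length was 2801 bp against 2078 bp over all genes, and their density was 0.218 sites per kb against 0.266. The median number of sites, 1 against 0, follows from the shares of genes with a site. In the length class of that median, 2000 to 3000 bp, 49.5% of all genes held a site, and the partnered share was not taken by length. Among the 7 genes of meristem identity, 4 held 1 site each. These were AP1 at chr1:25984829-25985228, its close relative CAL at chr1:9102478-9102877, the related MADS gene FUL (AGL8) at chr5:24505133-24505532, and the homeodomain gene LMI1 (HB51) at chr5:1006074-1006473. Only that of CAL was partnered, with midpoints 2 bp apart. LFY itself, its antagonist TFL1 and the MYB gene LMI2 (MYB17) held no DAP site inside the gene. LFY held 1 ampDAP site, which was looked up after the other values were seen. The DAP DNA came from the line with an LFY transgene, and the part of this in the absence of a DAP site was not tested.

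Of 11 organ identity genes, 7 held a site. AG, which specifies stamens and carpels, held 1 site at chr4:10386448-10386847, 1892 bp from the nearer end of the 5684 bp gene, and its ampDAP midpoint was 15 bp away. SHP2, a carpel relative of AG, held a partnered site at chr2:17822493-17822892, and its paralog SHP1 an unpartnered one at chr3:21741397-21741796. These 3 sites lay 1892, 1321 and 921 bp from the nearer end of their genes. AP3, needed for petals and stamens, held a partnered site at chr3:20119370-20119769, 429 bp from the nearer end. SEP4, a cofactor gene of organ identity, held a partnered site at chr2:1130006-1130405. Its relative SEP3 held 2 unpartnered sites, at chr1:8594382-8594781 and chr1:8594857-8595256, with midpoints 1045 and 1520 bp from the lower end of a 2588 bp gene. AP2, an outer-whorl identity gene, held 1 unpartnered site at chr4:17401001-17401400. PI, SEP1, SEP2 and STK held none inside the gene. UFO, the F-box cofactor of LFY, held 1 unpartnered site at chr1:11036450-11036849, and the boundary gene SUP held none.

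Flowering time genes gave the same count, 12 of 20, with a median length of 3067 bp, a median of 1 site and 0.244 sites per kb. A site was held by 49.5% of all genes of 2000 to 3000 bp and 61.1% of those of 3000 to 4000 bp. FCA, an RNA-binding protein of the autonomous pathway that lowers the repressor FLC, held 4 sites in 8385 bp. Its 2 partnered sites, chr4:9214123-9214522 and chr4:9214721-9215120, lay 659 and 61 bp from one gene end. FVE, a chromatin protein of the same pathway, held 1 partnered site. Among 7 repressors of flowering, FLM (MAF1), MAF2 (AGL31), TEM1 and FRI, which raises FLC, held 1 site each, and only that of FRI, chr4:270639-271038, was partnered. FLC, SVP and MAF3 held none. Among 11 integrators and promoters of flowering, CO, the photoperiod regulator, held 1 partnered site at chr5:5171301-5171700. FD, the bZIP partner of FT, and SPL3, a SQUAMOSA-promoter-binding gene, held 2 unpartnered sites each, and AGL24, TSF and SPL5 held 1 unpartnered site each. FT, SOC1, GI, SPL4 and SPL9 held none.

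Among meristem and boundary genes, 10 of 20 (27.2 to 72.8%) held a site, with 0.370 sites per kb against 0.266 over all genes. Their median length was 2372 bp, and 49.5% of all genes of 2000 to 3000 bp held a site. CUC3, an organ boundary gene, held 4 sites in 2240 bp, of which 2 were partnered, STM, which maintains the shoot meristem, held 3 with 1 partnered, and CLV2, a receptor-like protein of the stem cell pathway, held 3 with none. Auxin response genes held a site in 22 of 51 (43.1%), with 0.261 sites per kb and a median of 0 sites. The auxin response factor genes ARF10 and ARF9 held 4 sites each and MP, an activator of LFY during flower initiation, held 3, with 1 partnered site in each of the 3 genes. ARF1 and ARF18 also held 3 sites each, none of them partnered. Over the whole list 4 of 37 sites were partnered (10.8%, 3.03 to 25.4%), against 19.1% of all placements. This share ran up to 38.5% in floral regulators and was 11.1% in ribosomal protein genes. The intervals of all 7 lists included 19.1%. By role, 11 of 22 auxin response factors and 11 of 29 Aux/IAA repressors held a site. Median lengths in these roles were 3670 and 1740 bp, in that order. Of all genes of 3000 to 4000 bp, 61.1% held a site, and of those of 1500 to 2000 bp, 39.6%. The intervals of the role shares, 28.2 to 71.8% and 20.7 to 57.7%, overlapped, and each included the value of its length class. Several of the auxin response factor genes are close copies of each other, and how reads that match several copies were placed is not stated.

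Gibberellin genes held a site in 16 of 25 (64.0%, 42.5 to 82.03%), with 0.437 sites per kb and a median length of 2244 bp. Of all genes of 2000 to 3000 bp, 49.5% held a site. Biosynthesis genes (7 of 9) and signalling genes (7 of 8) held sites more often in these counts than inactivation genes (2 of 8), and the intervals of these shares overlapped. Median lengths in these roles were 1787, 2309 and 2516 bp, in that order. Of all genes of 1500 to 2000 bp, the class of the biosynthesis median, 39.6% held a site. RGL3, a DELLA repressor of gibberellin response, held 3 unpartnered sites. GA20OX5, of biosynthesis, and GA2OX2, of inactivation, held 2 each with 1 partnered.

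The contrast lists differed from each other. Ribosomal protein genes, with a median length of 1601 bp, held a site in 14 of 45 (31.1%, 18.2 to 46.7%), at 0.234 sites per kb and a median of 0. Of all genes of 1500 to 2000 bp, the class of that median length, 39.6% held a site, a value inside that interval. P40, SAC52 and RPSAb, which encode subunits of the cytosolic ribosome, held 2 each, 1 of them partnered in P40. Light-harvesting genes, which encode the chlorophyll-binding antenna proteins, had a median length of 1491 bp but held a site in 15 of 21 (71.4%, 47.8 to 88.7%), at 0.757 sites per kb and a median of 1. Of its 11 members of 1000 to 1500 bp, 6 held a site, against 27.8% of all genes of that length, and of its 10 members of 1500 to 2000 bp, 9 did, against 39.6%. LHCB5 held 3 sites in 1843 bp with none partnered, LHCB6 2 in 1419 bp with both partnered, and LHB1B1 2 in 1312 bp with 1 partnered. Members of this family are related genes, and whether their sites share sequence was not tested. Over the whole list 6 of 24 sites were partnered (9.77 to 46.7%), against 19.1% of all placements.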

How the data were processed

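The deposited intervals are other values than measurements of strength: each line gives a chromosome, start and end with no score. Per the submitters' processing notes, Bowtie2, SAMtools and MACS2 and the build TAIR10 were used; versions, thresholds, controls and replicate pooling are not given in the sources used here. Genes came from the RefSeq table of assembly TAIR10.1 (27444 nuclear protein-coding genes); its nuclear chromosomes are taken as those of TAIR10, and its coordinates are not printed. As a coarse check, site density was higher deeper than 200 bp inside genes than outside them on 5 of 5 chromosomes; the rise is gradual and does not test the position of single gene edges. Positions are counted from 1. Midpoints and nearest partners were computed in Python 3.11.15 with pandas 2.3.3 and scipy 1.17.1, and the counting was tested on simulated data. The planned strand-aware position and intron share could not be computed, and distance from both gene ends replaced the former. For 142 listed symbols there were 136 list entries of 135 distinct genes, since ETT (ARF3) stands in both the boundary and the auxin list. Ribosomal protein and light-harvesting genes were found by symbol and synonym text. The former list was planned as cytosolic, but several of its members may be organellar, and it need not hold every ribosomal protein gene.

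The members and gene lists were chosen with earlier results of these data known. Named genes were the 10 with most sites, the 5 densest and 5 fully partnered ones with at least 3 sites, the 3 longest without a site, all floral and flowering time genes with a site, and the 3 with most sites of each other list (ties by more partners, then by shorter gene, an order that favours partnered sites). SYD and ATM were added after their values were seen.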

Additional observations from a re-analysis of the deposited data

How the results depend on the processing

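Of 85 recomputed values under 14 settings, 64 fell inside the 95% interval given in the report and 21 fell outside it. Only the difference in partner share between outside and inside genes has a direction to change, and it changed in 0 of 14 settings. The partner share inside genes (19.1%) was 16.9% with midpoints within 20 bp and 20.7% within 400 bp, and the unpartnered share of ampDAP sites inside genes (1.92%) was 12.7% within 20 bp and 2.46% with an overlap of at least 1 bp with a gene. With the whole interval inside the gene, 68.1% of DAP sites were genic, 27.1% of placements lay in the outer 20% at either end, 39.1% of genes held a site and 31.7% of those held 2 or more. With an overlap of at least 1 bp these were 81.3% of sites, 47.1% of genes and 34.6% with 2 or more; the share in the outer 20% could not be computed. Genes that overlap no other gene held 56.7% of sites, 42.6% of them held a site, and the partner share was 2.95 percentage points higher outside than inside, because sites in the 6831 overlapping genes then count as outside. Genes of at least 1 kb held 73.6% of sites, 49.2% of them held a site and 34.0% of those held 2 or more. Keeping the first of overlapping DAP sites gave 28.7% with 2 or more. Without chromosome 2, 76.8% of sites were genic. Without regions near the longest stretches free of sites, a setting added after the data were seen, 79.7% of sites were genic and 44.6% of genes held a site. The partner share was higher outside genes than inside in 14 of 14 settings.

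No paired analysis was possible because there was a single DAP and a single ampDAP library. Strand-aware positions and introns were not analysed here. Neither list states its depth or threshold, which limits every comparison of sharing.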

Other observations

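Some sites inside protein-coding genes also lay in other annotated transcripts. Of the 17129 sites, 275 (1.61%) were also inside a gene for a non-coding RNA, and 43 of these (15.6%, 11.5 to 20.5%) had an ampDAP partner. Genes with more than 1 annotated RefSeq transcript (10698, median length 2700 bp) held 0.261 sites per kb and genes with 1 transcript (16746, median length 1678.5 bp) 0.270 per kb, with partner shares of 18.5 and 19.7%.

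Genes within 2.5 Mb of the longest stretches without a site covered 17.4% of that sequence and held 43.9% of its DAP sites. DAP density inside genes was 229.5 per Mb there and 268.3 per Mb farther away, and outside genes 61.9 and 120.7 per Mb. The ratio of inside to outside was therefore 3.71 near the stretches and 2.22 farther away. For ampDAP sites the corresponding ratios were 2.30 and 1.60, and their density inside genes was 50.7 and 51.7 per Mb. The stretches were the longest on each chromosome without a DAP or ampDAP site. Lower density near them follows in part from that choice, and the part of this in the ratios was not tested.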
